A study of Mus musculus with 13 samples.

Results

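The 10 genes described here are marker genes of the macrophages that live in adipose tissue, taken by name from a table of 34419 genes counted in gluteal white adipose tissue (WAT). *Adgre1*, *Cd68*, *Csf1r* and *Lyz2* mark macrophages in general, *Mrc1*, *Cd163* and *Lyve1* mark resident macrophages, and *Trem2*, *Cd9* and *Itgax* are used as markers of lipid-associated macrophages. All 10 were found in the table by gene identifier, and all 10 passed the filter on low counts, with between 29 and 11230 reads per gene and library. RNA was sequenced from gluteal WAT, a subcutaneous depot, of male C57BL/6J mice that carried no engineered allele, 7 housed at 22°C and 6 housed at 29°C. Both groups lived at their temperature from birth until 13 weeks of age. All 13 mice had the fur over the rear of the body taken off every week after weaning. Each shared a cage with no other mouse and had nothing to build a nest with. No group kept its fur, so the comparison is of housing temperature in mice with reduced insulation, and the RNA came from whole tissue rather than from sorted cells. Each library was taken as 1 mouse, because the labels number the replicates without naming animals, so the p-values measure the spread between these samples.

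Macrophages are phagocytes, and WAT of lean mice already holds a population of them that sits beside vessels and between adipocytes, clears dead cells and debris, and takes up lipid that adipocytes release. Their survival depends on signaling through CSF1R, the receptor for colony stimulating factor 1 and interleukin 34. In obesity a lipid-handling state becomes frequent that is marked by TREM2 and CD9 and in which lysosomal and lipid-binding genes are high, whereas resident cells are marked by scavenger and endocytic receptors such as CD163 and CD206, the product of *Mrc1*. Whole-tissue RNA cannot tell a lower number of macrophages from less of a transcript per macrophage, and this holds for each value given below.

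Libraries held between 22356637 and 25245785 counts, and 5 of the 22°C libraries had totals below those of the other 8 libraries, which hold 2 mice at 22°C and all 6 mice at 29°C. Markers of adipocytes were abundant in all libraries, with a summed level between 11577 and 17958 CPM (counts scaled to the size of the library) over 7 genes, led by *Fabp4* and *Lipe*. Markers of skeletal muscle, led by *Acta1* and *Myh4*, took up 0.0977% to 8.58% of all reads at 22°C and 0.0145% to 0.807% at 29°C. All 19 muscle markers had a log2 fold change of 22°C relative to 29°C above 0, with a median of 3.21. With edgeR 0 of the 19 were called and 12 had an unadjusted p below 0.05, whereas DESeq2 called 10, each higher at 22°C. Over all 17779 genes tested with edgeR, 3290 had an unadjusted p below 0.05, and DESeq2 called 10.2% of the genes it tested. The part of muscle content and of library totals in the values below was not tested beyond the fits that hold them as a covariate. Markers of B cells, T cells, neutrophils and lymphatic endothelium were scarce in comparison, with summed levels of at most 22.2, 6.93, 9.57 and 69.1 CPM.

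Promoter sequences are shown for 4 markers, for *Cd68*, *Mrc1* and *Trem2* because they held the letters searched for, and for *Itgax* as an example of a window without them. RefSeq windows of the GRCm38.p6 build matched 7 of the 10 markers, and *Adgre1*, *Csf1r* and *Lyve1* are not shown. The windows were searched on both strands for GAGGAA, the core of the site that PU.1, the myeloid transcription factor encoded by *Spi1*, is known to bind, over the 250 bases before the start site. The letters were present in 3 of the 7 windows, against 23.3% of the 32851 promoter windows of the same length, and a match of this short word is a description of the sequence and not a binding site. *Cd68* held 1 match on the strand of the gene, *Mrc1* held 3 matches and *Trem2* 1 match on the opposite strand, where they read TTCCTC, and the windows of *Itgax*, *Lyz2*, *Cd163* and *Cd9* held none. Of the markers without a match, *Lyz2* and *Cd163* varied from mouse to mouse together with *Cd68*, *Mrc1* and *Trem2*, and a relation of matches to this variation was not tested. The stretches shown are chr11:69666171-69666420 on the minus strand for *Cd68*, chr2:14229164-14229391 on the plus strand for *Mrc1*, chr17:48346151-48346400 on the plus strand for *Trem2* and chr7:128129300-128129546 on the plus strand for *Itgax*, each read 5′ to 3′ along the gene, ending before the first annotated exon, with matches in capitals.
Cd68: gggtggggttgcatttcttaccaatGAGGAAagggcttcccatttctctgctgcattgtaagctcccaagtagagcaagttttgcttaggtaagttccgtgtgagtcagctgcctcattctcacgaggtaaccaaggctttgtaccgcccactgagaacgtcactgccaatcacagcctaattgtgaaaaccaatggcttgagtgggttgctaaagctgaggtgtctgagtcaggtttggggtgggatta
Mrc1: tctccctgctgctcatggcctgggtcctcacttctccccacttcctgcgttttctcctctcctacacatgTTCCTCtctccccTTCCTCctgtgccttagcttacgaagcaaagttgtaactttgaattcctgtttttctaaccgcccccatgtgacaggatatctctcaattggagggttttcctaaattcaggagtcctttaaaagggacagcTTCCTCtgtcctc
Trem2: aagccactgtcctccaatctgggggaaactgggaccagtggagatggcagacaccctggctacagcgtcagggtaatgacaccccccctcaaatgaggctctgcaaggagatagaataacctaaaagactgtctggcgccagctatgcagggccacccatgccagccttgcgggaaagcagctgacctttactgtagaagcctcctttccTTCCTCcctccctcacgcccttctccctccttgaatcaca
Itgax: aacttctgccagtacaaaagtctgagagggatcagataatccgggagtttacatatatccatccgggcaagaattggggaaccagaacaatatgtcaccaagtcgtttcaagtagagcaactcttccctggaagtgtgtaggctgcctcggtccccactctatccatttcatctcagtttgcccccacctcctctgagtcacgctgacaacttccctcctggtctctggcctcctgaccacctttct

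No marker of the 10 passed the test between the housing temperatures. With edgeR's quasi-likelihood test, 0 of 10 were called at an adjusted p (P-adj) below 0.1, where 1.94% of the 17779 genes tested were called. An unadjusted p below 0.05 was found for 0 of the 10 and for 3290 of all genes tested. DESeq2, which called 10.2% of the genes it tested, and limma on the deposited log2 values also called 0 of 10. The CPM of the 2 groups overlapped for all 10 markers, and did not overlap for 1.24% of the genes tested. With shares of 1.94% called and 1.24% without overlap, 0 of 10 does not set the markers apart from other genes. The shares over all genes were larger for DESeq2 and for an unadjusted p below 0.05. The 0 of 10 was not tested against any of these shares. The log2 fold change of 22°C relative to 29°C was above 0 for 5 markers and below 0 for 5, with a median of -0.05 over the markers and 0.01 over all genes tested; with upper quartile normalization *Lyz2* and *Cd9* moved to just below 0, which made 3 above and 7 below. The 95% interval of each fold lay within 0.5 and 2, so larger changes of either sign are outside the intervals of all 10 markers, while changes of up to about the interval given for each marker cannot be told from none at this spread between mice.

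**Figure D1:**
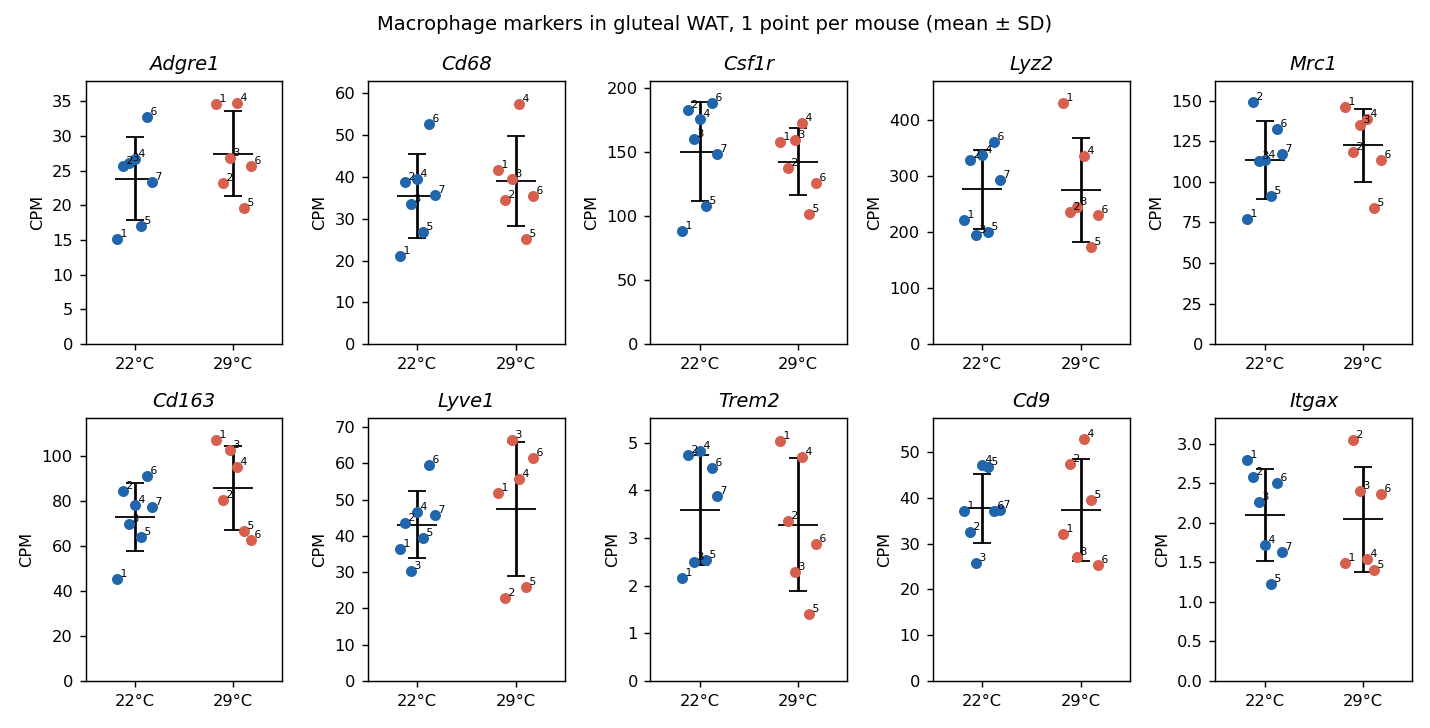
Level of each of the 10 markers in CPM (vertical axes from 0) in each mouse at 22°C (blue, 7 mice) and 29°C (red, 6 mice), with the replicate number beside each point and bars for the mean ± SD. The groups overlap for all 10 markers, and replicate 1 at 22°C and replicate 5 at 29°C lie at or near the bottom of most panels.

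*Adgre1* encodes F4/80, the adhesion receptor most used to identify mouse macrophages, and lies at chr17:57358691-57483527 (GRCm38, GENCODE M21 annotation). Its level was between 15.2 and 32.7 CPM at 22°C (median 25.7), and between 19.6 and 34.8 CPM at 29°C (median 26.2.) Replicate 1 at 22°C was lowest and replicate 4 at 29°C highest, and most mice of both groups lay between them in a shared range. The mean was 23.8 ± 5.99 CPM (SD, n = 7) against 27.4 ± 6.11 CPM (SD, n = 6), and the log2 fold change was -0.20, with a standard error (SE) of 0.18 and a P-adj of 0.587. The 95% interval of the fold ran from 0.662 to 1.14.

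*Cd68* encodes a heavily glycosylated protein of the lysosome and endosome membrane that is abundant in phagocytes, and lies at chr11:69664213-69666153. It was read at 21.1 to 52.7 CPM at 22°C (median 35.6), and at 25.2 to 57.6 CPM at 29°C (median 37.5.) The lowest and highest mice of each group were the same as for *Adgre1*, and the ranges overlapped for most of their width. The log2 fold change was -0.14 (SE 0.21, P-adj = 0.763), with a 95% interval of the fold from 0.669 to 1.24.

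*Csf1r*, on chromosome 18, encodes the receptor that macrophages need for survival and proliferation. Its level was 88.7 to 188 CPM at 22°C (median 161), and 102 to 173 CPM at 29°C (median 148.) The range at 29°C fell inside the range at 22°C. On the log2 scale the fold change was 0.08 (SE 0.18, P-adj = 0.848), with a 95% interval of the fold from 0.808 to 1.38.

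*Lyz2* encodes lysozyme M, the antibacterial enzyme of macrophages and neutrophils, and lies at chr10:117277331-117282321. Its level was between 195 and 361 CPM at 22°C (median 293), and between 174 and 431 CPM at 29°C (median 240.) Replicate 1 at 29°C was highest of all mice and replicate 5 at 29°C lowest, so the 22°C mice lay inside the 29°C range. The means were 277 ± 70.0 CPM (SD, n = 7) and 275 ± 92.4 CPM (SD, n = 6). The fitted difference (log2) was 0.01 (SE 0.22, P-adj = 0.992), with a 95% interval of the fold from 0.729 to 1.39.

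*Lyz1*, the close paralog of *Lyz2*, lies beside it at chr10:117287797-117292868 and limits how exactly *Lyz2* reads were assigned. The annotated transcripts of the pair were identical at 92.0% of 1317 aligned positions, with a longest identical run of 118 bases, so reads within such runs cannot be placed by sequence. *Lyz1* had 270 to 958 reads per library, and its mean was 28.0 ± 10.3 CPM at 22°C and 23.5 ± 9.95 CPM at 29°C (log2 fold change 0.25, SE 0.31, P-adj = 0.701). *Lyz2* is also expressed by neutrophils, of whose markers *Csf3r* had 37 to 180 reads and *S100a8* 8 to 48 reads per library, and their part in the reads of *Lyz2* was not tested.

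The 3 resident markers had log2 fold changes below 0, and none passed the test. *Mrc1* encodes CD206, the mannose receptor that takes up glycoproteins, and lies at chr2:14229392-14332057. It was read at 77.4 to 149 CPM at 22°C (median 114), and at 84.2 to 146 CPM at 29°C (median 127.) Its groups covered nearly the same range, and it had the smallest spread over all 13 mice of the 10 markers, with a ratio of highest to lowest of 1.93. Between temperatures the log2 fold change was -0.11 (SE 0.15, P-adj = 0.746), with a 95% interval of the fold from 0.736 to 1.17.

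*Cd163* encodes the scavenger receptor that clears complexes of hemoglobin and haptoglobin, and lies at chr6:124304656-124330527. Its level was 45.6 to 91.5 CPM at 22°C (median 77.4), and 62.9 to 108 CPM at 29°C (median 87.8.) The highest 3 of the 29°C mice, replicates 1, 3 and 4, lay above all 22°C mice, and replicate 1 at 22°C lay below all others. The means were 73.0 ± 15.1 CPM (SD, n = 7) and 86.0 ± 18.8 CPM (SD, n = 6). The log2 fold change of -0.24 (SE 0.16) was the farthest from 0 among the 10 markers and did not pass the test (P-adj = 0.470), with a 95% interval of the fold from 0.664 to 1.09.

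*Lyve1* encodes a receptor for hyaluronan that is made by a subset of resident macrophages and also by lymphatic endothelium, and lies at chr7:110850607-110863239. It was read at 30.3 to 59.4 CPM at 22°C (median 43.5), and at 22.9 to 66.3 CPM at 29°C (median 53.8.) The 22°C mice all lay within the range of the 29°C mice, which spread widely, with replicates 2 and 5 low and replicates 3 and 6 high. The log2 fold change was -0.14 (SE 0.24, P-adj = 0.804), with a 95% interval of the fold from 0.632 to 1.31.

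The 3 lipid-associated markers had log2 fold changes above 0, except that *Cd9* was at -0.02 with upper quartile normalization, and none passed the test. *Trem2* encodes a receptor for lipids and apolipoproteins that signals through the adaptor DAP12, and lies at chr17:48346401-48354147. It was scarce, with 36 to 131 reads per library, a range of 2.16 to 4.82 CPM at 22°C (median 3.89), and a range of 1.41 to 5.03 CPM at 29°C (median 3.11.) The mice at 22°C fell into 4 higher ones, replicates 2, 4, 6 and 7, and 3 lower ones, and the 29°C range contained all of them. *Trem2* had the widest spread of the 10 markers over the 13 mice, with a ratio of highest to lowest of 3.57. The log2 fold change was 0.13 (SE 0.29, P-adj = 0.844), with a 95% interval of the fold from 0.707 to 1.70.

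*Cd9* encodes a tetraspanin that lipid-associated macrophages carry but that adipocyte progenitors, endothelium and other cells carry too, and lies at chr6:125460266-125494791. Its level was 25.7 to 47.2 CPM at 22°C (median 37.2), and 25.4 to 52.9 CPM at 29°C (median 35.8.) The means of 37.7 ± 7.57 CPM (SD, n = 7) and 37.4 ± 11.1 CPM (SD, n = 6) lay close together. On the log2 scale the fold change was 0.01 (SE 0.19, P-adj = 0.985), with a 95% interval of the fold from 0.764 to 1.33.

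*Itgax* encodes CD11c, the integrin subunit found on dendritic cells and on macrophages of inflamed fat, and lies at chr7:128129547-128150657. It had the fewest reads of the 10 markers, 29 to 79 per library, which gave 1.23 to 2.79 CPM at 22°C (median 2.27) and 1.41 to 3.05 CPM at 29°C (median 1.95.) Its order of mice was unlike that of the other markers, in that replicate 1 at 22°C was the highest mouse of its group. The fitted difference (log2) was 0.04 (SE 0.24, P-adj = 0.947), with a 95% interval of the fold from 0.725 to 1.46.

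**Figure D2:**
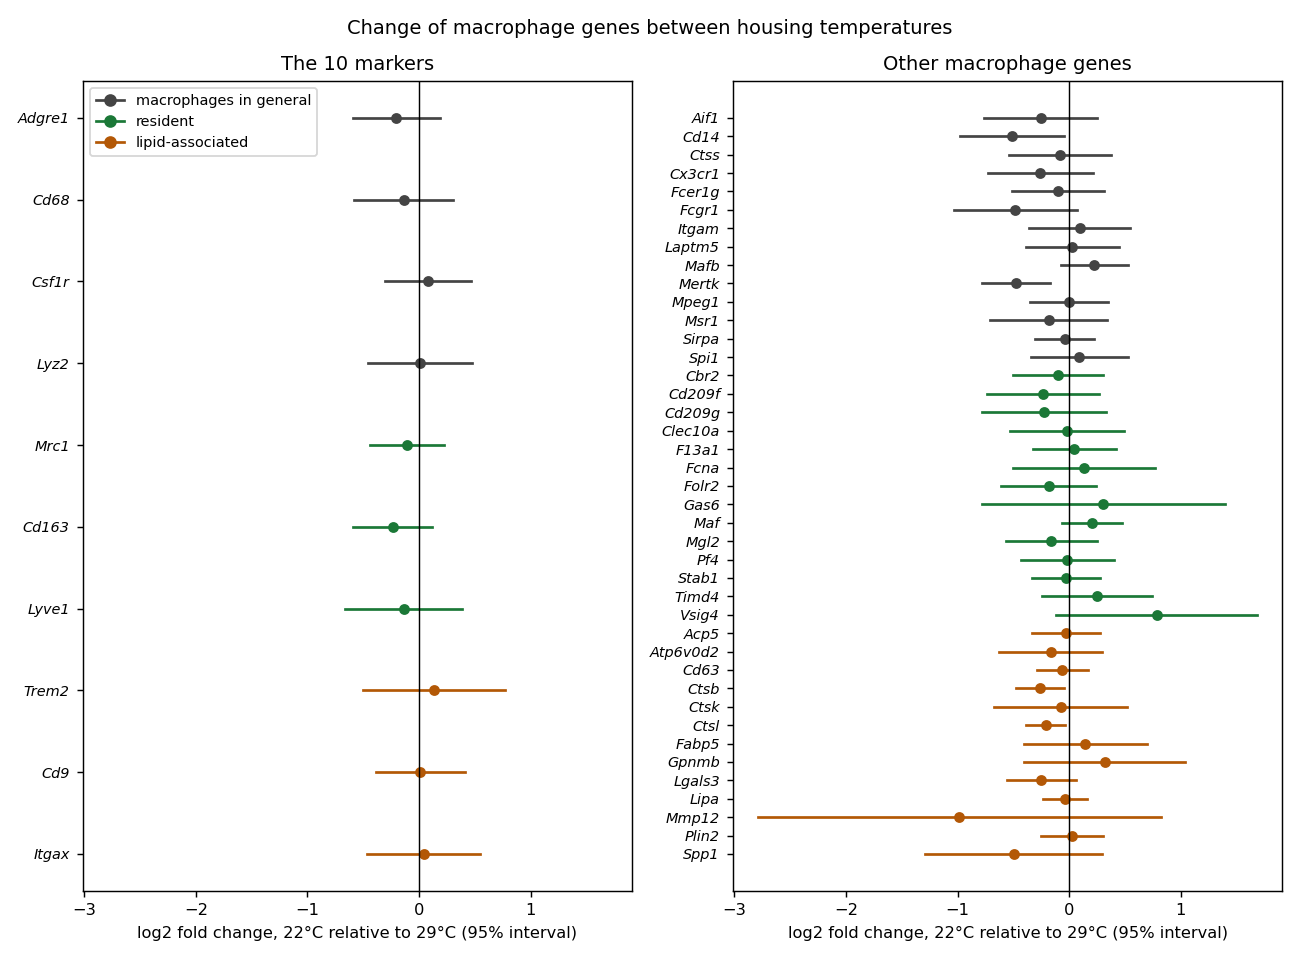
Log2 fold change of 22°C relative to 29°C (horizontal axis, points) with its 95% interval (lines) for the 10 markers (left) and for 41 other macrophage genes (right), colored by general, resident or lipid-associated group. All intervals of the 10 markers include 0, and the points of the 10 markers lie between -0.24 and 0.13.

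The opposite signs of the resident and lipid-associated markers were described by a ratio within each mouse, the mean log2 CPM of *Mrc1*, *Cd163* and *Lyve1* minus that of *Trem2*, *Cd9* and *Itgax*. It was 3.42 ± 0.19 (SD, n = 7) at 22°C, where it ran from 3.02 to 3.56, and 3.64 ± 0.42 (SD, n = 6) at 29°C, where it ran from 2.92 to 4.17. The difference of -0.22 was smaller than the pooled SD of 0.32, and the 22°C range lay inside the 29°C range. The difference was -0.08 among the 8 libraries with higher totals, -0.12 without replicate 3 at 29°C and -0.37 without replicate 2 at 29°C. The signs themselves were not fixed, as *Cd9* turned to -0.02 with upper quartile normalization, and among the 8 libraries with higher totals *Mrc1* was at 0.02, *Lyve1* at 0.14 and *Cd9* at -0.01. In those 8 libraries the median log2 fold change of the markers was 0.08 and 0 of 10 were called, in a comparison of 2 mice at 22°C with 6 at 29°C.

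Levels were compared between markers only per length, as CPM per kilobase of the union of annotated exons. *Lyz2* was highest at 210 ± 58.9 CPM per kilobase (SD, n = 13 mice) and stood clear of all others in each of the 13 mice. *Cd68* at 29.5 ± 8.04 and *Csf1r* at 25.4 ± 5.59 CPM per kilobase came next, and *Cd68* exceeded *Csf1r* in 11 of 13 mice although their ranges overlapped. *Mrc1* at 18.5 ± 3.58, *Cd9* at 18.4 ± 4.38, *Lyve1* at 15.4 ± 4.72 and *Cd163* at 14.5 ± 3.21 CPM per kilobase each overlapped in range with the next of this group. *Mrc1* exceeded *Cd9* in 7 of 13 mice, and *Csf1r* exceeded *Mrc1* in all 13. *Adgre1* at 7.87 ± 1.88 CPM per kilobase lay below *Cd163* in all 13 mice. *Trem2* at 0.696 ± 0.248 and *Itgax* at 0.432 ± 0.124 CPM per kilobase were lowest, with the highest *Trem2* mouse at 1.02 and the lowest *Adgre1* mouse at 4.69 CPM per kilobase, while the ranges of *Trem2* and *Itgax* overlapped. The lengths come from GENCODE M21, and the annotation used for counting is not given in the sources used here. A union of exons, 4946 bases for *Trem2*, can be longer than the transcripts made, which lowers the level per kilobase. The order of the markers therefore rests on the lengths used.

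Most of the markers varied together from mouse to mouse within a temperature. The mean of each temperature group was removed from log2 CPM, and the deviations of the 13 mice were compared between genes. Over all 45 pairs of the 10 markers the lowest Pearson's r was -0.37, for *Cd9* with *Itgax*. *Adgre1*, *Cd68*, *Csf1r*, *Lyz2*, *Mrc1*, *Cd163* and *Trem2* correlated with each other with r between 0.70 and 0.94 over their 21 pairs, with a median of 0.83. These 7 were chosen by their r in the same mice. *Lyve1*, *Cd9* and *Itgax* were set aside, as their relation to *Adgre1* did not pass the threshold used below. Of these, *Lyve1* was in between, with r of 0.45 to 0.60 to the 7 markers. All 7 of these markers lay below their group mean in replicates 1 and 5 at 22°C and in replicates 5 and 6 at 29°C, with median deviations of -0.64, -0.42, -0.52 and -0.09 on the log2 scale. All 7 lay above it in replicates 2, 4, 6 and 7 at 22°C and in replicates 1 and 4 at 29°C, where the largest median deviation was 0.38 in replicate 6 at 22°C. Of the mice low for these markers, replicate 1 at 22°C held 6.25% of its counts in muscle markers and replicate 5 at 22°C held 0.0977%. At 29°C, replicate 5 held 0.773% and replicate 6 held 0.0145%. Replicate 7 at 22°C, with 8.58%, lay above its group mean. The part of muscle content in these deviations was not tested. The median biological coefficient of variation was 0.26 over the 10 markers and 0.19 over all genes tested.

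**Figure D3:**
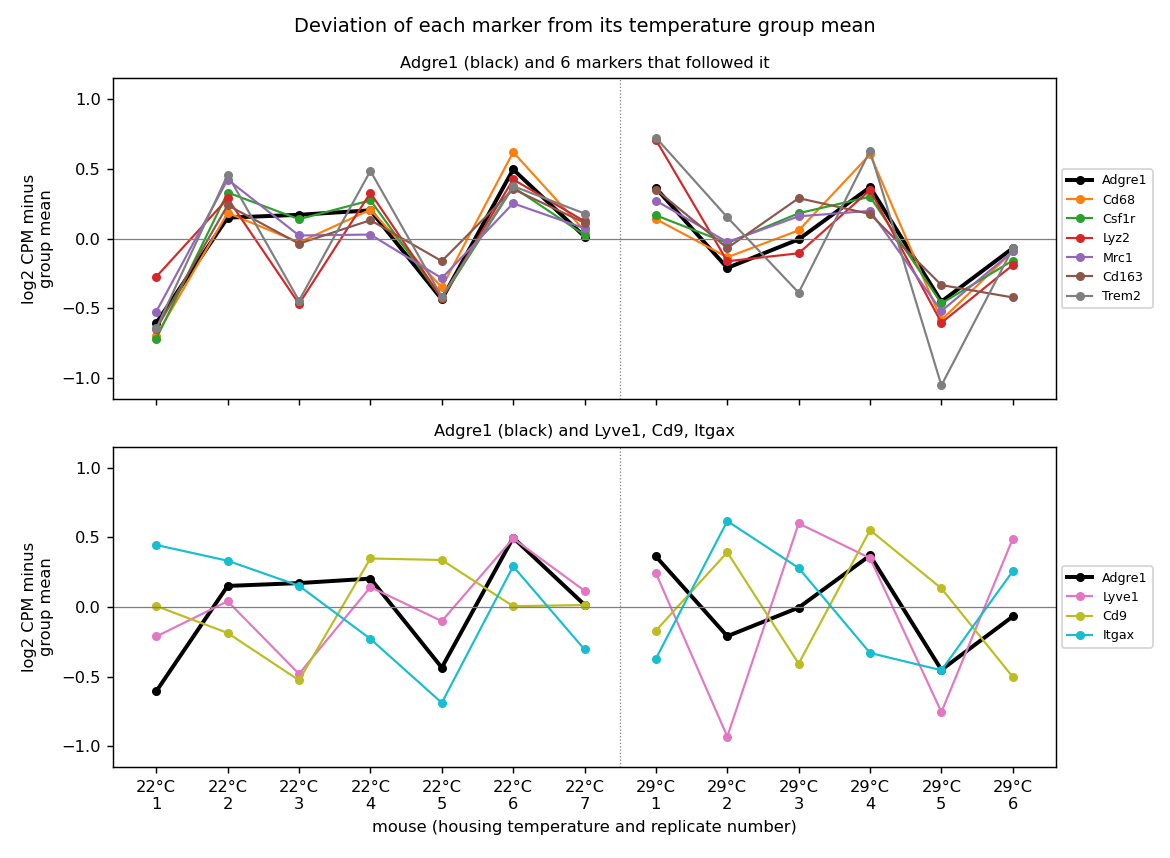
Deviation of log2 CPM from the mean of the temperature group (vertical axes) for each of the 13 mice (horizontal axis), for *Adgre1* and 6 markers that followed it (top) and for *Adgre1* in black with *Lyve1*, *Cd9* and *Itgax* (bottom); lines join the mice of 1 group only to make each gene readable, as the mice have no order. The 7 markers at the top fall and climb together, and at the bottom *Cd9* and *Itgax* run apart from *Adgre1*.

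Each of the other 9 markers was set against *Adgre1*, and 6 further pairs were compared, which made 15 relations tested with 100000 permutations of mice within each temperature and adjusted together. *Cd68* followed *Adgre1* most closely (r = 0.944, permutation p = 2.0e-05, P-adj = 3.0e-04; Spearman's rho = 0.940, permutation p = 1e-05, the smallest these permutations can give). *Csf1r* had r = 0.935 (permutation p = 5.0e-05, P-adj = 3.7e-04) and rho = 0.885 (permutation p = 2.1e-04). *Mrc1* had r = 0.879 (permutation p = 3.4e-04, P-adj = 0.0017) and rho = 0.824 (permutation p = 0.0017). *Cd163* had r = 0.832 (permutation p = 9.9e-04, P-adj = 0.0037) and rho = 0.824 (permutation p = 0.0018), *Trem2* had r = 0.794 (permutation p = 0.0014, P-adj = 0.0043) and rho = 0.791 (permutation p = 0.0029), and *Lyz2* had r = 0.787 (permutation p = 0.0020, P-adj = 0.0043) and rho = 0.802 (permutation p = 0.0025). The relation was positive within each temperature for these 6 markers, from 0.676 for *Lyz2* to 0.968 for *Csf1r* at 22°C and from 0.730 for *Cd163* to 0.949 for *Lyz2* at 29°C.

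Without the 2 mice farthest from the median of *Adgre1*, r over the other 11 mice was 0.906 for *Cd68*, 0.858 for *Csf1r*, 0.798 for *Lyz2*, 0.765 for *Mrc1* and 0.749 for *Trem2*, each with a P-adj below 0.05 by permutation, although rho did not pass for *Mrc1* (rho = 0.564, permutation P-adj = 0.15) or *Trem2* (rho = 0.691, permutation P-adj = 0.10). The relation of *Cd163* did not pass without those mice (r = 0.716, permutation P-adj = 0.078) and did not pass among the 8 libraries with higher totals (r = 0.741, permutation P-adj = 0.098). Among those 8 libraries r was 0.927 for *Cd68*, 0.896 for *Csf1r*, 0.927 for *Lyz2*, 0.876 for *Mrc1* and 0.833 for *Trem2*, although rho did not pass for *Csf1r* (rho = 0.881, permutation P-adj = 0.054) or *Trem2* (rho = 0.738, permutation P-adj = 0.12). All of these points share the tissue, the library and its depth with the gene they are set against.

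*Lyve1*, *Cd9* and *Itgax* did not follow *Adgre1* past the threshold. *Lyve1* was in between (r = 0.549, permutation p = 0.045, P-adj = 0.068; rho = 0.560, permutation p = 0.050), with r between 0.45 and 0.60 to the 7 markers above. *Lyve1* was next set against a marker of each of its cell types, *Folr2*, the folate receptor of resident macrophages, and *Prox1*, the transcription factor that defines lymphatic endothelium. It followed *Folr2* (r = 0.721, permutation p = 0.0033, P-adj = 0.0062; rho = 0.687, permutation p = 0.010), with r = 0.777 (permutation P-adj = 0.043) without the 2 mice farthest from the median and r = 0.833 (permutation P-adj = 0.064) among the 8 libraries with higher totals. Its rho did not pass in either setting (rho = 0.609, permutation P-adj = 0.13, and rho = 0.524, permutation P-adj = 0.33). It was not shown to follow *Prox1* (r = 0.329, permutation p = 0.20, P-adj = 0.27; rho = 0.148, permutation p = 0.62), whose 2 to 59 reads per library leave its level uncertain, and the difference between the 2 relations was not tested.

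*Cd9* showed r = -0.111 to *Adgre1* (permutation p = 0.72, P-adj = 0.83; rho = -0.055, permutation p = 0.87) and r = -0.002 to the progenitor marker *Pdgfra* (permutation p = 0.99, P-adj = 0.9995; rho = -0.099, permutation p = 0.75). Its r to the 7 markers that varied together ran from -0.17 to 0.22. *Itgax* showed r = 0.0002 to *Adgre1* (permutation p = 0.9995, P-adj = 0.9995; rho = -0.082, permutation p = 0.80), and its r to the 7 markers ran from -0.11 to 0.16. *Itgax* and *Flt3*, a receptor of dendritic cells and their precursors, gave r = 0.361 (permutation p = 0.25, P-adj = 0.31; rho = 0.533, permutation p = 0.074). That value rested on the mice included, since r was 0.811 (permutation P-adj = 0.032) without the 2 mice farthest from the median of *Flt3*. It was 0.877 (permutation P-adj = 0.038) among the 8 libraries with higher totals, and -0.108 within 22°C and 0.875 within 29°C. Both genes were counted with few reads, 6 to 31 per library for *Flt3*.

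The remaining relations concerned a ligand and a neutrophil gene. *Csf1r* followed *Csf1*, which encodes its main ligand (r = 0.820, permutation p = 0.0020, P-adj = 0.0043; rho = 0.780, permutation p = 0.0049), with r = 0.725 (permutation P-adj = 0.038) without the 2 mice farthest from the median and r = 0.846 (permutation P-adj = 0.043) among the 8 libraries with higher totals, where rho did not pass (rho = 0.738, permutation P-adj = 0.13). *Lyz2* ran opposite to *S100a8*, an abundant neutrophil gene (r = -0.736, permutation p = 0.0069, P-adj = 0.011; rho = -0.764, permutation p = 0.0053). The latter relation rests on a few mice, with r = -0.568 (permutation P-adj = 0.13) without the 2 mice farthest from the median of *S100a8* and r = -0.633 (permutation P-adj = 0.18) among the 8 libraries with higher totals, and *S100a8* had 8 to 48 reads per library.

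All genes tested were then ranked by their r to *Adgre1*, as a description without a test. Over 17778 genes the median r was -0.02, and the 5th and 95th percentiles were -0.55 and 0.64. Among genes outside the 10 markers, the 5 most like *Adgre1* over the 13 mice included *C3ar1* (r = 0.960), the receptor for the complement fragment C3a, *Cfp* (r = 0.943), which encodes properdin, *Laptm5* (r = 0.933), a lysosomal protein of hematopoietic cells, and *Hpse* (r = 0.931), which encodes heparanase. None of these 4 was called between temperatures. Their log2 fold changes were 0.05 (SE 0.18) for *C3ar1*, -0.15 (SE 0.18) for *Cfp*, 0.03 (SE 0.19) for *Laptm5* and 0.05 (SE 0.21) for *Hpse*, with P-adj of at least 0.71. Of the 41 other macrophage genes tested, 22 lay above the 95th percentile of r, 12 of 14 resident genes, 9 of 14 general genes and 1 of 13 lipid-associated genes.

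**Figure D4:**
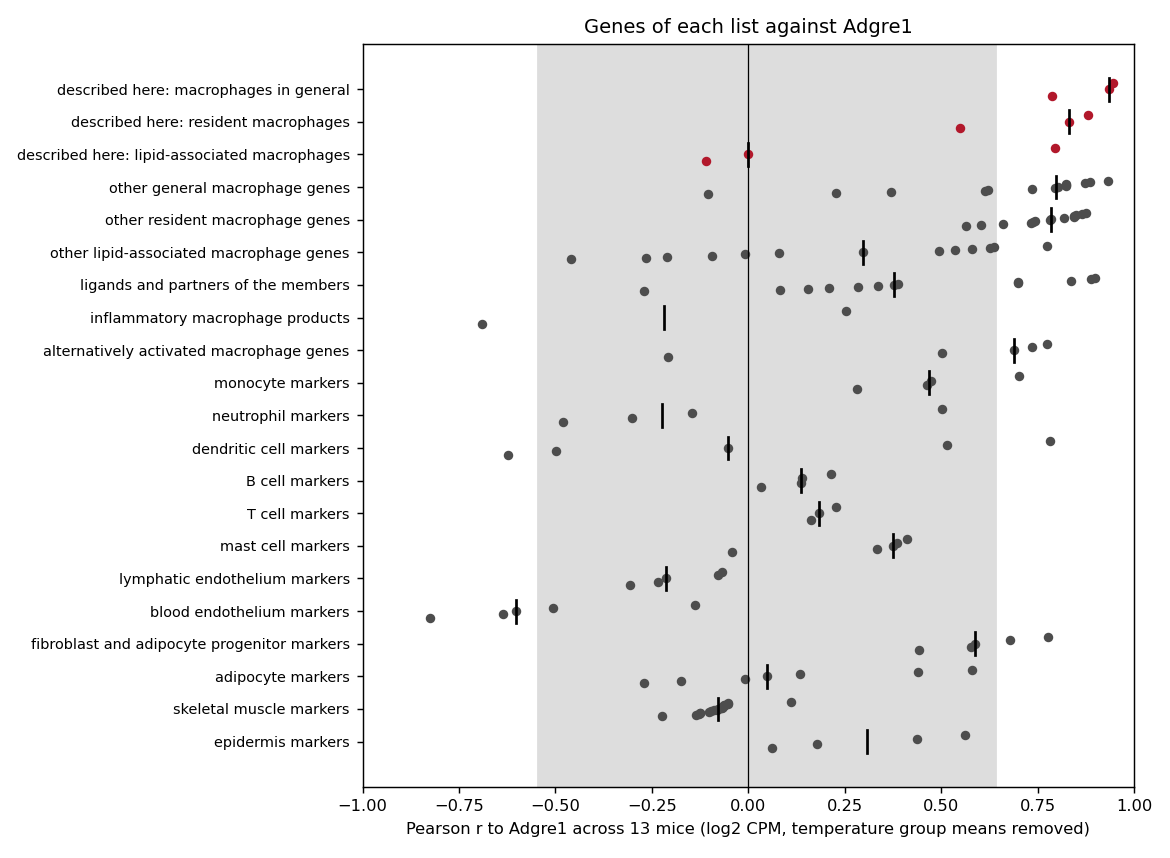
Pearson's r to *Adgre1* over 13 mice after removal of the temperature group means (horizontal axis) for the tested genes of each list (rows), with the list median as a black bar and the range from the 5th to the 95th percentile of all tested genes in grey. General and resident macrophage genes sit mostly to the right of the grey range, lipid-associated genes are spread across it, and blood endothelium markers have a median of -0.60.

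Other cell types were placed against *Adgre1* in the same way. Fibroblast and progenitor markers had a median r of 0.59, led by *Col1a1* at 0.78. Blood endothelium markers had a median r of -0.60, led by *Kdr*, a receptor for vascular endothelial growth factor, at -0.82. Adipocyte markers had a median r of 0.05 and skeletal muscle markers of -0.08. Monocyte markers lay in between with a median of 0.47, and T cell and B cell markers had medians of 0.18 and 0.14. Their part in the shared variation of the macrophage markers was not tested.

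The wider set of macrophage genes was read in the same comparison of temperatures. Of 42 further general, resident and lipid-associated genes, 41 were tested, and 14 had a log2 fold change above 0 and 27 below. With edgeR 0 were called and 4 had an unadjusted p below 0.05, where 3290 of all 17779 genes tested did. The median log2 fold change was -0.06 beside 0.01 over all genes. DESeq2 called 3 of these macrophage genes, *Mertk*, *Ctsb* and *Ctsl*, all lower at 22°C, where it called 10.2% of all genes. The most counted general genes were *Sirpa*, an inhibitory receptor, with a log2 fold change of -0.04 (SE 0.12) and *Laptm5*. The most counted resident-list genes were *Gas6*, a bridging ligand for dying cells that fibroblasts also make, with a log2 fold change of 0.31 (SE 0.51), and *F13a1*, which encodes coagulation factor XIII, with 0.05 (SE 0.17). The most counted lipid-associated genes were the lysosomal protease gene *Ctsb*, with -0.26 (SE 0.10, P-adj = 0.203), and the phosphatase gene *Acp5*, with -0.03 (SE 0.14). Adipocytes and other cells express several of this list as well, so its summed level of 2611 to 3776 CPM is not a measure of macrophages alone.

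*Mertk*, the receptor with which macrophages engulf dying cells, was chosen for mention after its value was seen. It was read at 24.3 to 35.8 CPM at 22°C and 31.3 to 54.0 CPM at 29°C, so that the groups overlapped, and the log2 fold change was -0.48 (SE 0.14, P-adj = 0.131). DESeq2 called it (P-adj = 0.034), as 1 of 25 alternatives.

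Ligands and partners of the markers were compared next, of which 13 were tested, and 4 had a log2 fold change above 0 and 9 below. With edgeR 0 were called and 3 had an unadjusted p below 0.05, where 3290 of all 17779 genes tested did. The ligands of CSF1R are encoded by *Csf1*, at -0.21 on the log2 scale (SE 0.15, P-adj = 0.497), and *Il34*, singled out after its value was seen. *Il34* was read at 13.8 to 27.5 CPM at 22°C (median 18.7), and at 23.2 to 41.2 CPM at 29°C (median 32.8.) The groups overlapped in part, and the log2 fold change of -0.67 (SE 0.18) missed the threshold (P-adj = 0.106). DESeq2 called *Il34* (P-adj = 0.011), 5 of 25 alternatives called it in all, and among the 8 libraries with higher totals it was at -0.55 (P-adj = 0.398). Haptoglobin, the partner of CD163, is encoded by *Hp*, with a log2 fold change of -0.28 (SE 0.27), and apolipoprotein E, a ligand of TREM2, by *Apoe*, with -0.34 (SE 0.15, P-adj = 0.237). The adaptor gene *Tyrobp*, which encodes DAP12, was at -0.03 (SE 0.20) and *Itgb2*, which encodes the integrin chain that pairs with CD11c, at -0.05 (SE 0.18), and both followed *Adgre1* with r of 0.89 and 0.84.

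Genes of activated macrophages were scarce or did not pass the test, where 3290 of all 17779 genes tested had an unadjusted p below 0.05 with edgeR. Of 8 inflammatory products, *Tnf*, *Il1b*, *Il6*, *Il12b*, *Ccl3* and *Cxcl2* were too low to be tested, and 0 of the 2 tested were called with edgeR, *Nos2* at a log2 fold change of -0.07 (SE 0.17) and *Ptgs2*, which encodes an enzyme of prostaglandin synthesis, at 0.82 (SE 0.29, P-adj = 0.178; unadjusted p = 0.013), which DESeq2 called. Of 7 genes of alternative activation, 5 were tested, 0 were called with edgeR or DESeq2 and 1 had an unadjusted p below 0.05, with *Retnla*, which encodes a resistin-like protein, at 0.01 (SE 0.18) and the transglutaminase gene *Tgm2* at 0.04 (SE 0.17). Markers of monocytes, led by *Ccr2* and *Plac8*, of neutrophils, led by *Csf3r* and *S100a8*, of dendritic cells, led by *Zbtb46* and *Cd209a*, of mast cells, led by *Mcpt4* and *Tpsb2*, of B cells, among them *Cd79b*, of lymphatic endothelium, led by *Flt4* and *Ccl21a*, of blood endothelium, led by *Cdh5* and *Pecam1*, of fibroblasts and progenitors, led by *Col1a1* and *Dcn*, and of epidermis, led by *Krt5* and *Krt10*, also had 0 genes called with edgeR or DESeq2, and the genes with an unadjusted p below 0.05 were 2 of the dendritic cell markers and 1 of the blood endothelium markers.

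Among all listed genes only *Cd3e* and *Lep* were called with edgeR. *Cd3e*, a subunit of the T cell receptor complex, was higher at 22°C, with 0.47 to 2.03 CPM against 0.084 to 0.541 CPM at 29°C. Between temperatures the log2 fold change was 1.78 (SE 0.42, P-adj = 0.082) on 2 to 48 reads per library, and the other T cell markers tested, *Trac* at 0.66 (SE 0.48) and *Cd3g* at 0.25 (SE 0.36), were not called. The call of *Cd3e* was kept in 10 of 25 alternatives and was not made among the 8 libraries with higher totals (log2 fold change 1.41, P-adj = 0.345). *Lep*, which encodes the adipocyte hormone leptin, was lower at 22°C, with 502 to 940 CPM against 972 to 1617 CPM at 29°C and no overlap. The log2 fold change was -0.78 (SE 0.15, P-adj = 0.056). The call of *Lep* was kept in 18 of 25 alternatives and was not made among the 8 libraries with higher totals (log2 fold change -0.88, P-adj = 0.259).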

How the data were processed

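RNA of gluteal WAT was sequenced in 13 libraries, 7 at 22°C and 6 at 29°C, grouped by the housing temperature in the labels. The authors aligned reads and counted them per gene, and deposited raw counts of 34419 genes; the submitters' processing notes name FastQC, STAR 2.7.5a, featureCounts, DESeq2 and the GRCm39 build. A companion table of regularized log2 values, which the authors made from these counts in DESeq2, was also deposited. The annotation and strand setting are not given in the sources used here, so overlapping genes and close paralogs are uncertain. Symbols were matched by gene identifier without its version, for 34006 genes.

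Counts were compared with edgeR 4.0.16 in R 4.3.3 (TMM scaling, filterByExpr, quasi-likelihood F test, Benjamini-Hochberg adjustment over 17779 genes, called at P-adj below 0.1, no covariate). Standard errors were derived from each log2 fold change and its F statistic. TMM-scaled library sizes were used for CPM, and a prior count of 2 for log2 CPM. A count of 0 would allow 3 counts, or 0.113 to 0.158 CPM, which covers counting error only, and no marker was at 0. No 2 libraries agreed within sampling noise over their 78 pairs. DESeq2 1.42.0 and limma 3.58.1 were alternatives. The fit and the ranking by correlation were tested on simulated data. Exon lengths and gene positions are from GENCODE M21 (GRCm38), and the lysozyme transcripts were aligned with Biopython 1.88.

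The 10 markers and the 21 lists, which hold 154 genes, were chosen with earlier results of these data known. Genes named outside the markers are the 2 most counted of each list, those called, the 5 most like *Adgre1*, the genes of the 15 relations, *Lyz1*, and a few said to be chosen after their values were seen. A few genes that this rule would name are not reported here.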

Additional observations from a re-analysis of the deposited data

How the results depend on the processing

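No marker was called in any of 26 alternatives, and the lowest P-adj of a marker in any of them was 0.334, for *Cd163* without replicate 6 at 22°C. The median log2 fold change of the markers was -0.05 in the report. In all 25 alternatives that refit it, it moved by less than 0.29, the pooled SD between mice of the mean log2 CPM of the markers. This wide limit allows a change of sign. The median was 0.09 with a covariate for the 2 clusters of totals and 0.08 among the libraries with higher totals. The labels do not say that a replicate number marks a shared litter, batch or day. Of the 6 same-numbered pairs, 5 correlated above 0.1 and 1 at 0.05 (range 0.05 to 0.51), and 7 of 12 libraries correlated best with their own number, a hint of pairing from the data and not from the design. The cut of 0.1 was a choice, and because 1 pair fell below it the numbers were not taken to pair the mice. The permutations of the relations did not use the numbers, and a pairing would leave the mice less independent than assumed. The fit with the replicate number as a block called 0 markers and 263 genes, with a median of -0.03 over the markers. The difference in the log2 ratio of resident to lipid-associated markers was -0.25 as the mean within numbers.

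The number of all genes called, 345, depended on the processing. It was 1676 with DESeq2, 42 without the filter on low counts, 40 at a P-adj below 0.05, 41 with the muscle score as a covariate, 4 with a covariate for the 2 clusters of totals, 8 among the libraries with higher totals, and between 32 (without replicate 3 at 29°C) and 652 (without replicate 6 at 22°C) with 1 library left out. The cause was not tested.

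Of 250 refitted log2 fold changes of the markers, 36 had another sign than in the report, each past no threshold. Upper quartile normalization gave -0.015 for *Lyz2* and -0.016 for *Cd9*, and the muscle score as a covariate gave -0.13 for *Lyz2* and -0.073 for *Cd9*. A covariate for the 2 clusters of totals gave 0.031 for *Adgre1*, 0.18 for *Cd68*, 0.027 for *Mrc1*, 0.15 for *Lyve1* and -0.0050 for *Cd9*, and the libraries with higher totals alone gave 0.020, 0.17, 0.018, 0.14 and -0.013 for the same genes. With 1 library left out the ranges were -0.26 to 0.0070 for *Cd68*, -0.0061 to 0.17 for *Csf1r*, -0.099 to 0.18 for *Lyz2*, -0.027 to 0.30 for *Trem2*, -0.077 to 0.14 for *Cd9* and -0.050 to 0.19 for *Itgax*. Without the 2 mice farthest from the median of the gene compared, and among the libraries with higher totals, r became 0.068 and 0.044 for *Cd9* with *Adgre1*, -0.086 and -0.065 for *Itgax* with *Adgre1*, and 0.27 and 0.22 for *Cd9* with *Pdgfra*; 8 and 7 of the 15 relations passed in these settings, against 9 in the report. The alternatives for *Lep*, *Cd3e*, *Il34* and *Mertk* were chosen after seeing the data.

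*Trem2* and *Itgax* had the fewest reads of the markers, and the part of low counts in the width of their intervals was not tested. Of the 22°C mice, 2 lie among the libraries with higher totals, so that totals and temperature are told apart by these mice alone.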
